A study of Homo sapiens with 4 samples.

Results

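Tafazzin, listed in the deposited table under its older symbol TAZ, was examined together with 5 genes of cardiolipin synthesis and remodelling (CRLS1, PTPMT1, PGS1, LCLAT1 and HADHA). The members were the rows that carry these symbols, and all 6 were found among 19897 rows. RNA-seq was done on DU145, an established human prostate cancer cell line grown with 10% fetal bovine serum. The control group was 2 libraries from cells carrying pLKO, a lentiviral hairpin vector, and the knockdown group 2 libraries labelled TAZ knockdown. The design names 2 independent hairpins without saying which library holds which. Separate cultures within a group are not stated, so the p-values reflect a spread between libraries that could be technical. If the knockdown libraries hold different hairpins, the spread between them also includes any difference between the hairpins.

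Cardiolipin is a phospholipid with 4 acyl chains that is made in, and largely kept to, the inner mitochondrial membrane, where it binds respiratory chain complexes and metabolite carriers. PGS1 makes phosphatidylglycerophosphate, PTPMT1 removes its phosphate to leave phosphatidylglycerol, and CRLS1 joins phosphatidylglycerol to CDP-diacylglycerol to give cardiolipin. Tafazzin then exchanges the acyl chains, and loss of its gene causes Barth syndrome, a disease of heart and skeletal muscle.

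The symbol TAZ is shared by unrelated genes, which makes its row a check on which gene was silenced. The Hippo pathway coactivator called TAZ is encoded by WWTR1 on chromosome 3, and WWTR1 has a row of its own. In GENCODE 29 the symbol TAZ belongs to the tafazzin gene on chromosome X. RefSeq now calls that gene TAFAZZIN and lists TAZ as a synonym of both genes. The 8 coding transcripts of tafazzin and the 8 of WWTR1 shared 0 words of 19 bases, a usual length of a hairpin stem. Their longest identical run was 12 bases, and it lay in both coding sequences. It is shown in capitals with 24 bases on either side, 5′ to 3′, to let the coding messages be compared around their closest match (GENCODE 29, coding bases 451 to 462 of 876 in tafazzin and 728 to 739 of 1200 in WWTR1).
TAZ (tafazzin): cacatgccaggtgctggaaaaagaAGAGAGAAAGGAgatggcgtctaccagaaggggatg
WWTR1: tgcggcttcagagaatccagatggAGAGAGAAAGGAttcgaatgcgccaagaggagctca
The letters on either side of the run differ between the messages. The longest run shared with WWTR1 transcripts was 12 bases for PTPMT1 and HADHA, 13 for PGS1, 18 for CRLS1 and 20 for LCLAT1. The 20-base run gave LCLAT1 2 shared words of 19 bases, and within coding sequence LCLAT1 and WWTR1 shared no run longer than 11 bases.

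Values below are normalized read counts, that is, reads per gene divided by a size factor of the library. Recovered reads numbered 11687727 to 14814918 per library. Of the epithelial markers, KRT8, KRT18, EPCAM and CDH1 were present in every library, with summed counts of 29246 to 40419 in controls and 16218 to 25992 in knockdown, and KRT5 had no row among those used here. The leukocyte markers PTPRC and CD14 summed to 15.0 to 28.8 counts in controls and 6.25 to 14.2 in knockdown (CD3E had no row), and the endothelial markers PECAM1, VWF and CDH5 to 9.28 to 20.7 and 3.13 to 7.08, with PTPRC and PECAM1 at 0 in at least 1 library. The summed fibroblast markers COL1A1 and COL1A2 were at 50.6 to 94.6 in controls and 152 to 163 in knockdown (DCN had no row), and the part of these markers in the results was not tested.

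WWTR1 RNA fell in the knockdown libraries, while a change of tafazzin RNA was not detectable with these libraries. Tafazzin had 196 and 144 counts in control 1 and control 2, and 159 and 116 in knockdown 1 and knockdown 2. The groups overlapped, since knockdown 1 lay above control 2. The mean was 170 ± 36.7 in controls and 138 ± 30.9 in knockdown (SD over the 2 libraries of each group). The log2 fold change, fitted by limma on log2(count + 1) across all rows, was -0.30 ± 0.27 (SE), with an adjusted p of 0.849. Its 95% interval ran from -0.90 to 0.29, or from 53.7% to 122% of control. In bulk RNA of a cell line, a change in some cells and a smaller change in all cells cannot be told apart.

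The tafazzin row rested on few reads. The recovered reads were 211 in control 1 and 125 in control 2, and 180 in knockdown 1 and 111 in knockdown 2. Exact Poisson 95% intervals, which cover counting error only, were 170 to 224 normalized counts in control 1, 120 to 171 in control 2, 137 to 184 in knockdown 1 and 95.2 to 139 in knockdown 2. The intervals of knockdown 1 and both controls overlapped, and the interval of knockdown 2 lay below that of control 1 alone among the controls. In each group the library numbered 1 was the higher, by 0.44 log2 units in controls and 0.46 in knockdown, and these were also the more deeply sequenced libraries of their groups (13681392 against 11687727 reads and 14814918 against 12078623). The part of depth was not tested.

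The comparison with WWTR1 used the same libraries. WWTR1 had 2508 and 3626 counts in the controls and 839 and 719 in knockdown. Both knockdown libraries lay far below both controls. Its log2 fold change was -1.96 ± 0.20 (SE; limma adjusted p = 0.0086), with a 95% interval of -2.39 to -1.52, or 19.02% to 34.9% of control. This interval lay wholly below that of tafazzin. The ratio of WWTR1 to tafazzin counts within a library does not depend on library scaling, and it was 12.8 and 25.2 in controls and 5.26 and 6.22 in knockdown. Every knockdown ratio was below every control ratio, with a log2 difference of -1.65 (exact permutation test, two-sided, p = 0.333, the smallest that 2 against 2 libraries allow). Leaving out each library in turn gave WWTR1 values of -2.22 to -1.69, with a limma adjusted p above the threshold each time (0.308 to 0.9999). By limma p, WWTR1 ranked 2 and tafazzin 5956 of 17737 rows tested. The authors' deposited DESeq2 output gave WWTR1 a log2 fold change of -1.53, smaller in size than the limma value, and an adjusted p of 1.93e-14. DESeq2 on the recovered reads gave WWTR1 a log2 fold change of -1.98 (adjusted p = 1.81e-14).

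**Figure D1:**
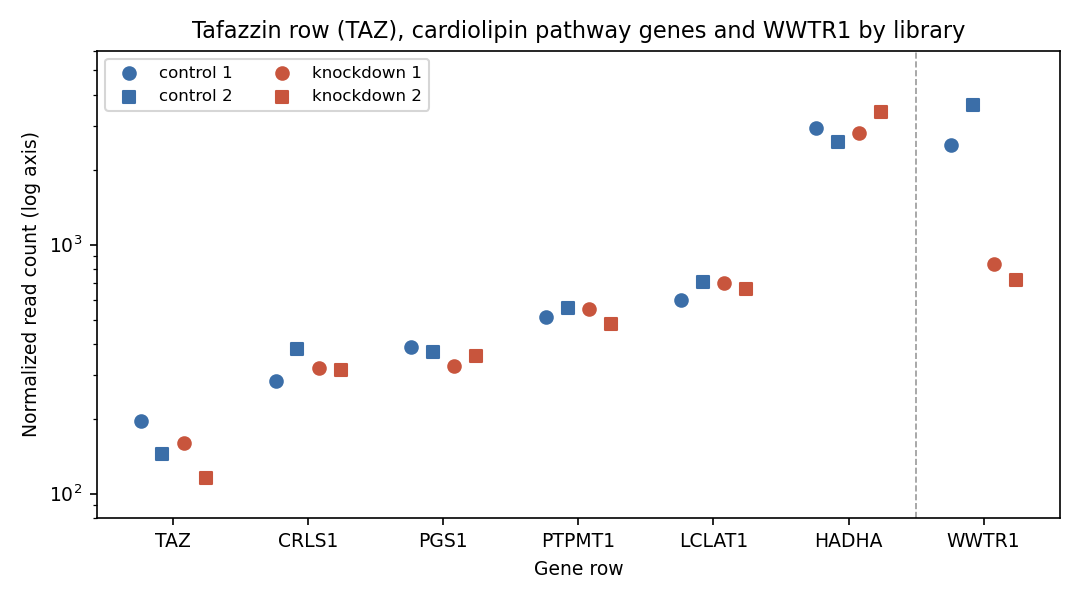
Normalized read count (log axis) of tafazzin (TAZ), the 5 other cardiolipin pathway genes and WWTR1 in each of the 4 libraries; each point is 1 library. Control and knockdown ranges overlap in each pathway gene but PGS1, while WWTR1 stands at 2508 and 3626 in controls and 839 and 719 in knockdown.

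None of the 6 cardiolipin pathway genes passed limma over all rows (adjusted p = 0.849 to 0.976). The share of all tested rows called was 0.0113%, 2 of 17737. All 6 genes passed the filter on low values, and 0 had an unadjusted limma p under 0.05, against 7.05% of all tested rows. edgeR, DESeq2 and limma-voom on the recovered reads also called 0 of them (0.0564%, 0.542% and 0.0113% of the rows each gave an adjusted p), and in the authors' deposited table the adjusted p was 0.9997 for all 6. With 4 genes lower and 2 higher in the mean, the median log2 fold change was -0.053, against -0.0075 over all tested rows. In 5 of the 6 genes the controls differed from each other by more than the knockdown mean differed from the control mean on the log2 scale.

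For the enzymes that build cardiolipin, a change between the groups was not detected. PGS1, which makes phosphatidylglycerophosphate, had 389 and 372 counts in controls and 324 and 359 in knockdown. It was the one member whose groups did not overlap, and both knockdown libraries were lower. Of all tested rows, 19% had knockdown below both controls. PGS1 averaged 380.1 ± 12.1 counts over the controls and 341 ± 24.4 over the knockdown libraries (SD, n = 2 each), and its log2 fold change was -0.16 ± 0.19 (SE; 95% interval -0.57 to 0.26; limma adjusted p = 0.894).

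PTPMT1, the phosphatase of the next step, had 510.2 and 556 counts in controls and 552 and 480.5 in knockdown. The lowest and the highest value stood in different groups but the ranges overlapped. The log2 fold change was -0.048 ± 0.18 (SE; 95% interval -0.45 to 0.35; limma adjusted p = 0.976). Values of PTPMT1 are uncertain, because 51.3% of its annotated exon bases overlap exons of KBTBD4 or CELF1 on the opposite strand and 26.3% overlap exons of NDUFS3 on the same strand (GENCODE 29), and the library kit as described does not mark strand. NDUFS3, a complex I subunit, had 779 and 813 counts in controls and 676 and 622 in knockdown. KBTBD4 had 108 and 118 in controls and 101 and 104 in knockdown. CELF1 had 1880 and 2072 in controls and 2255 and 1849 in knockdown, with overlapping groups. None of these passed limma (adjusted p = 0.740 for NDUFS3, 0.942 for KBTBD4 and 0.973 for CELF1).

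CRLS1, cardiolipin synthase itself, had 284 and 382 counts in controls and 319.7 and 313 in knockdown. Both knockdown values lay between the controls. Its log2 fold change was -0.058 ± 0.21 (SE; 95% interval -0.52 to 0.41; limma adjusted p = 0.975). The 2 controls differed by 0.43 log2 units, the knockdown libraries by 0.032. The ratio of CRLS1 to PGS1 was 0.730 and 1.03 in controls and 0.986 and 0.872 in knockdown, so both knockdown ratios lay between the control ratios. For PTPMT1 to PGS1 it was 1.31 and 1.495 in controls and 1.70 and 1.34 in knockdown.

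The other acyltransferases of cardiolipin had means slightly above control. LCLAT1 encodes lysocardiolipin acyltransferase, which puts acyl chains back on lysocardiolipin. It had 596 and 707 counts in controls and 699.6 and 666 in knockdown. Both knockdown values lay between the controls, with a log2 fold change of 0.071 ± 0.18 (SE; 95% interval -0.32 to 0.46; limma adjusted p = 0.959).

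HADHA encodes the alpha subunit of the mitochondrial trifunctional protein, which carries out steps of fatty acid beta-oxidation and whose alpha subunit also has monolysocardiolipin acyltransferase activity. It had 2949 and 2585 counts in controls and 2809.7 and 3413 in knockdown. Knockdown 2 was the highest library and knockdown 1 lay between the controls. HADHA averaged 2767 ± 258 counts over the controls and 3112 ± 427 over the knockdown libraries (SD, n = 2 each), with a log2 fold change of 0.17 ± 0.17 (SE; 95% interval -0.21 to 0.54; limma adjusted p = 0.868).

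**Figure D2:**
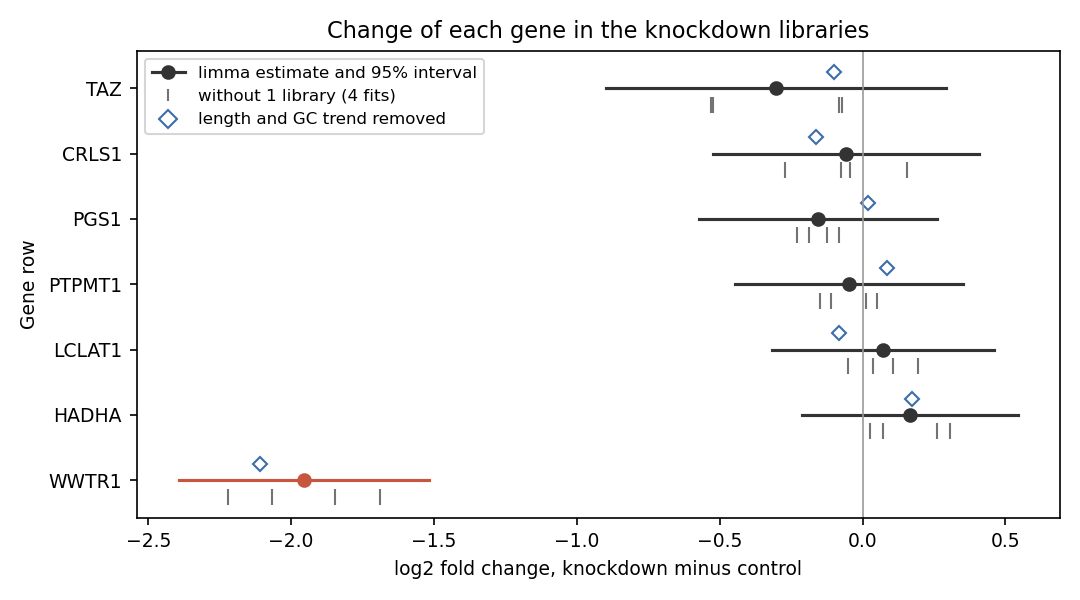
log2 fold change (knockdown minus control) of each gene, with the limma estimate and its 95% interval, the 4 estimates without 1 library (ticks) and the estimate with the length and GC content trend removed (diamonds). The 6 pathway genes have intervals that include 0, and the interval of WWTR1, -2.39 to -1.52, does not.

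HADHB encodes the beta subunit of the same protein, and the genes are arranged head to head. Their annotated starts are 307 bases apart, so the windows from 250 bases before to 50 bases after each start share 194 bases. The windows are shown for these shared bases, and the part of the shared bases in the counts was not tested. Each is written 5′ to 3′ on the strand of its own gene, from RefSeq (GRCh38.p14), HADHA at chr2:26244583-26244882 on the minus strand and HADHB at chr2:26244689-26244988 on the plus strand. Capitals mark the bases held by both windows, which are reverse complements of each other.
HADHA: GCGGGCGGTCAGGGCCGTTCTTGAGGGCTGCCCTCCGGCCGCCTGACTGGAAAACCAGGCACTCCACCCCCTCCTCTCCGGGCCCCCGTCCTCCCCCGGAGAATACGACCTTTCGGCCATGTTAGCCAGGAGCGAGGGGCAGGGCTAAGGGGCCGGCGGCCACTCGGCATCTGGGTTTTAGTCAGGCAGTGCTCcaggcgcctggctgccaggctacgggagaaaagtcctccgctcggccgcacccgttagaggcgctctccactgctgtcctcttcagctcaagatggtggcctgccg
HADHB: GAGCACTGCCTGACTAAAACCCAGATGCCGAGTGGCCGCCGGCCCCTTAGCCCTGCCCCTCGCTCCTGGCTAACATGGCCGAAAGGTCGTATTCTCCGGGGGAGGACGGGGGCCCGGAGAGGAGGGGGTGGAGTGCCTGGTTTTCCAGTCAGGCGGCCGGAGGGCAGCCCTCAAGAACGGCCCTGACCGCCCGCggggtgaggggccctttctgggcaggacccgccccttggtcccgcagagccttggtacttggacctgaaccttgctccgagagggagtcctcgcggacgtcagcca
HADHB had 1156 and 973 counts in controls and 1059.95 and 1226 in knockdown. Its order over the 4 libraries was the same as that of HADHA: knockdown 2, control 1, knockdown 1 and control 2. The ratio of HADHA to HADHB was 2.55 and 2.66 in controls and 2.65 and 2.78 in knockdown. The control and knockdown ratios overlapped, and the log2 difference was 0.062 (exact permutation test, two-sided, p = 0.667). HADHB did not pass limma (log2 fold change 0.10 ± 0.17, SE; adjusted p = 0.930).

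Promoter windows were found under their symbols for 5 of the 6 genes. The letters GGAATG, the core of the element bound by TEAD factors (the DNA-binding partners of the WWTR1 protein), were searched on both strands. They occurred once in the window of PGS1 and not in the windows of CRLS1, PTPMT1, LCLAT1 and HADHA, while 14.0% of all 35116 windows of 300 bases held them. The windows of PTPMT1 and PGS1 held 38 and 37 CG pairs, that of LCLAT1 32 and that of HADHA 22, and the one of CRLS1 held 3, against a median of 14 over all windows.

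Levels were compared between genes per kilobase of the longest coding transcript, as the mean normalized count of the 4 libraries. HADHA was highest at 968 per kilobase, followed by PTPMT1 at 326, PGS1 at 164, LCLAT1 at 132, CRLS1 at 82.0 and tafazzin at 81.3. CRLS1 and tafazzin did not differ beyond their spread, with ranges of 71.7 to 96.5 and 61.2 to 104 per kilobase over the 4 libraries. The ranges of the other neighbours in this order did not overlap. With the union of annotated exons as the length, PGS1 (72.7) and LCLAT1 (88.8) changed places and tafazzin stood at 32.6 and CRLS1 at 60.4. WWTR1 had 499 and 721 counts per kilobase of its longest coding transcript in controls and 167 and 143 in knockdown. By counts not divided by length, 47.9% of tested rows had a lower mean than tafazzin.

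Tafazzin lies beside DNASE1L1, a DNase gene on the opposite strand, and 143 of the 4721 annotated exon bases of tafazzin (3.03%) overlap it. DNASE1L1 had 236 and 178 counts in controls and 255 and 232 in knockdown, and it did not pass limma (log2 fold change 0.25 ± 0.23, SE; adjusted p = 0.854). Without 1 library its value was 0.047 to 0.45. The ratio of tafazzin to DNASE1L1 was 0.831 and 0.806 in controls and 0.625 and 0.498 in knockdown. Both knockdown ratios were below both control ratios, with a log2 difference of -0.55 (exact permutation test, two-sided, p = 0.333, the smallest this design allows). ATP6AP1, a subunit of the vacuolar proton pump encoded nearby, had 899 and 819 counts in controls and 1023 and 843 in knockdown (limma adjusted p = 0.925).

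**Figure D3:**
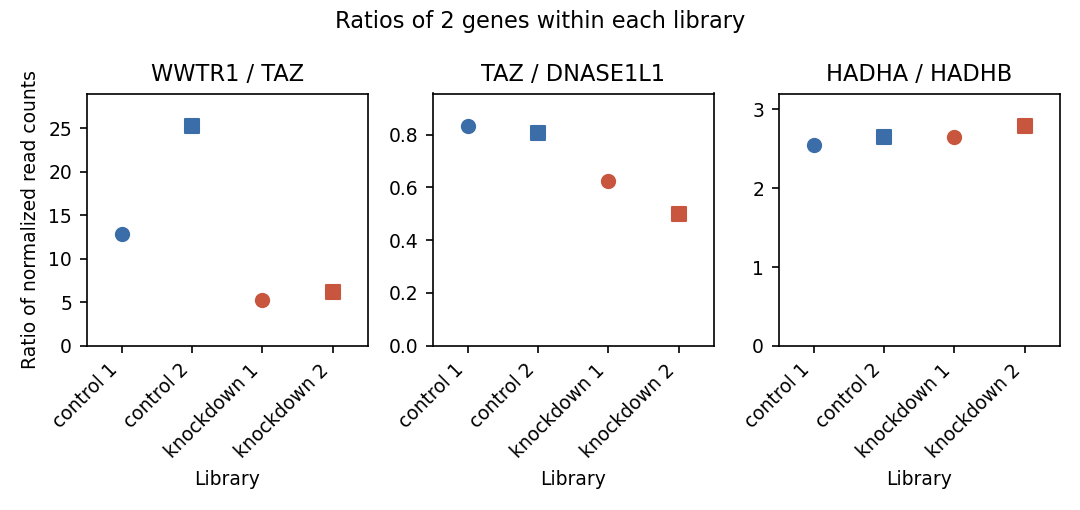
Ratio of the normalized read counts of 2 genes in each library (each vertical axis starts at 0; 1 point per library), for WWTR1 to tafazzin (TAZ), tafazzin to DNASE1L1 and HADHA to HADHB. The first is at 12.8 and 25.2 in controls and at 5.26 and 6.22 in knockdown, and the third stays between 2.55 and 2.78.

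Of the 11 neighbours of tafazzin on the X chromosome that were tested, 6 were higher and 5 lower, with a median log2 fold change of 0.038 and 0 past limma. Those with the smallest p were FLNA, which encodes the actin crosslinker filamin A, and PLXNA3, a semaphorin co-receptor. FLNA had 23215 and 28656 counts in controls and 40325 and 34648 in knockdown (limma adjusted p = 0.685). PLXNA3 had 363 and 445 in controls and 479.9 and 679.5 in knockdown (limma adjusted p = 0.691). In both genes each knockdown library lay above both controls, as in 18.4% of all tested rows.

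The pattern of tafazzin over the 4 libraries, high in control 1 and low in knockdown 2, had close matches among other rows. Among 10235 other rows with a mean of at least 100 counts, the nearest by Euclidean distance of centred log2 values were SMARCD2 (distance 0.030), TCEA2 (0.045), OBSL1 (0.049), PIM2 (0.053) and METTL21B (0.059). SMARCD2 had 1485 and 1086 counts in controls and 1219 and 899 in knockdown. The cardiolipin genes were farther off, from PTPMT1 at 0.51 (rank 2840) and PGS1 at 0.52 (rank 3142) to CRLS1 at 0.73 (rank 6727). WWTR1 was at 1.80 (rank 10194). These are distances over 4 libraries only. The nearest rows were picked by this same distance, so no conclusion is drawn from their closeness.

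Genes around the pathway and beside tafazzin were described by counts, from 7 lists with 92 tested genes. limma called 0 of the 92, with 5 higher and 3 lower at an unadjusted p under 0.05 (4.33% and 2.72% of all tested rows). edgeR and limma-voom called 0 of them, beside 0.0564% and 0.0113% of all tested rows. DESeq2 called 2, ACSL4 and CDS1, beside 0.542% of the rows it gave an adjusted p. Of 14 genes that supply phosphatidic acid and CDP-diacylglycerol, 8 had a higher and 6 a lower mean, a median log2 fold change of 0.031 was found, and 0 passed limma. Knockdown lay above both controls in 2 and below both in 3, beside 18.4% and 19% of all tested rows. CDS1, a CDP-diacylglycerol synthase of the endoplasmic reticulum, had 52.9 and 65.6 counts in controls and 126 and 187 in knockdown. Both knockdown libraries lay above both controls, with a log2 fold change of 1.36 ± 0.30 (SE; limma adjusted p = 0.330). The authors' deposited DESeq2 output called CDS1 higher (adjusted p = 0.0416), with a log2 fold change of 0.78, smaller than the limma value. It called 68 of 12673 genes with an adjusted p in either direction, 0.537%. DESeq2 on the recovered reads gave CDS1 a log2 fold change of 1.40. AGPAT2, an acyltransferase that makes phosphatidic acid, had 1578 and 1821 counts in controls and 1273 and 1321 in knockdown (limma adjusted p = 0.690).

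The mitochondrial lists gave no gene past limma over all rows. Of 6 tested genes of cardiolipin turnover and transfer, 4 were higher and 2 lower. The median log2 fold change was 0.098, and -0.050 to 0.26 without 1 library. The smallest adjusted p was 0.9199, that of HSD17B10, a mitochondrial dehydrogenase that had 612 and 661 counts in controls and 714 and 666 in knockdown. PLA2G6, a calcium-independent phospholipase, had 86.3 and 40.3 in controls and 58.4 and 40.6 in knockdown. Of 10 genes for phosphatidylethanolamine, the other cone-shaped phospholipid of the inner membrane, 5 were higher and 5 lower (median -0.025). Knockdown lay above both controls in 2 of them and below both in 1, beside 18.4% and 19% of all tested rows. PCYT2, which makes CDP-ethanolamine, had 306 and 330.1 counts in controls and 429 and 421 in knockdown, above both controls in both libraries (limma adjusted p = 0.706). EPT1, an ethanolamine phosphotransferase, had 1079.8 and 1411 in controls and 1545 and 1508 in knockdown (limma adjusted p = 0.749).

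Of 19 genes of the inner membrane scaffold (prohibitins, MICOS subunits and membrane proteases), 8 were higher and 11 lower, with a median log2 fold change of -0.040. PHB2, a prohibitin, had 3054 and 3069.98 counts in controls and 2432 and 1894 in knockdown, a log2 fold change of -0.51 ± 0.17 (SE; limma adjusted p = 0.609). STOML2, a scaffold protein that binds cardiolipin, had 5003 and 5184 in controls and 4206 and 3523 in knockdown (limma adjusted p = 0.690). For both genes each knockdown library lay below both controls. In all, 7 of the 19 lay below both controls and 3 above both, beside 19% and 18.4% of all tested rows. The 7 included genes of outer membrane proteins. The value of PHB2 was -0.33 without knockdown 2, and also -0.33 with the length and GC trend removed. PHB2 and STOML2 were the members of this list with an unadjusted limma p under 0.05.

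Of 20 tested genes of mitochondrial beta-oxidation and acyl-CoA supply, 9 were higher and 11 lower, with a median log2 fold change of -0.0082. ACSL4, the acyl-CoA ligase that prefers arachidonate, had 524 and 771 counts in controls and 1131 and 1214 in knockdown. Both knockdown libraries lay above both controls, and the log2 fold change was 0.88 ± 0.20 (SE; limma adjusted p = 0.355). In this list knockdown lay above both controls in 5 genes and below both in 3, beside 18.4% and 19% of all tested rows. The authors' deposited DESeq2 output gave ACSL4 a log2 fold change of 0.66 and an adjusted p of 0.0482. It called 0.537% of the genes that had an adjusted p. DESeq2 on the recovered reads gave ACSL4 a log2 fold change of 0.86. ECI1, an enoyl-CoA isomerase, had 534 and 553 counts in controls and 453 and 392 in knockdown (limma adjusted p = 0.714).

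Of 12 tested genes listed as cardiolipin-binding carriers and proteins, 2 were higher and 10 lower. The median log2 fold change was -0.17, the lowest of the 7 lists. Binding of each protein to cardiolipin was not tested here. Of all tested rows, 51.0% were lower. None passed limma. Both knockdown libraries lay below both controls in 5 of the 12 and above both in 1, beside 19% and 18.4% of all tested rows. NDUFAF1, an assembly factor of complex I, had 188 and 243 counts in controls and 125 and 178 in knockdown (limma adjusted p = 0.714). SLC25A3, the mitochondrial phosphate carrier, had 5721 and 6142 in controls and 4213 and 5456 in knockdown (limma adjusted p = 0.751).

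**Figure D4:**
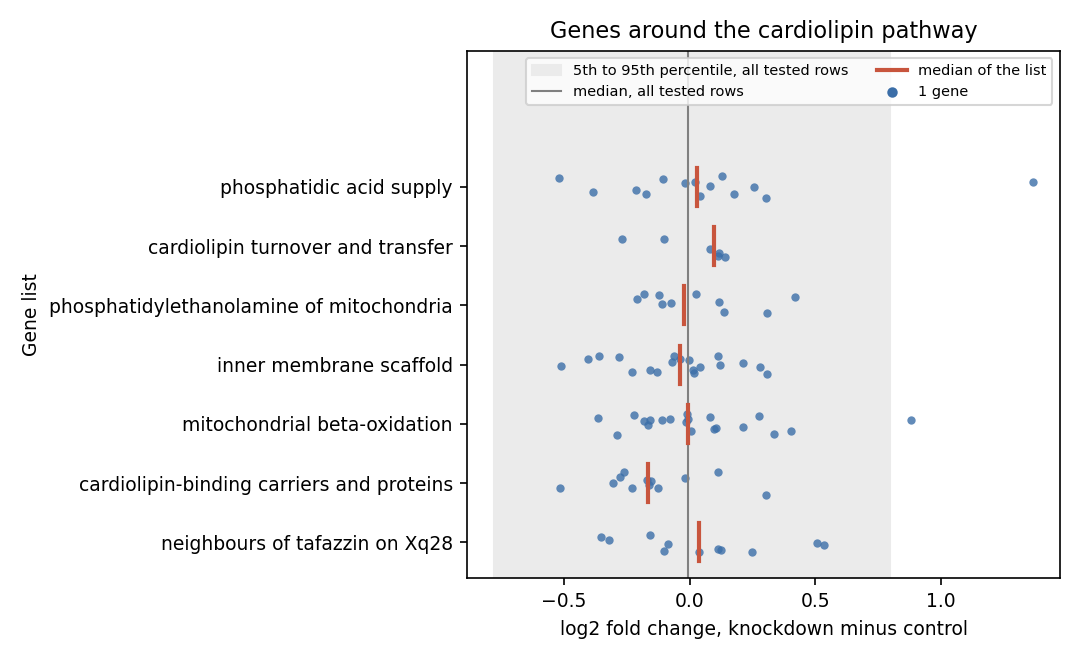
log2 fold change (knockdown minus control) of each tested gene in the 7 lists around the cardiolipin pathway, with the median of each list; points are spread vertically at random for legibility. The list medians lie between -0.17 and 0.098, and the grey band spans the 5th to 95th percentile of all tested rows, -0.78 to 0.80.

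With each library's trend over transcript length and GC content taken out, the log2 fold change of tafazzin was -0.10, and those of PTPMT1, PGS1 and LCLAT1 changed sign at 0.087, 0.018 and -0.083. Without control 1 or knockdown 2 the value of tafazzin was -0.082 and -0.073. Without control 2 or knockdown 1 it was -0.52 and -0.53. Each of these fits leaves 1 library in a group, so whether tafazzin passed limma in them decides nothing.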

How the data were processed

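The table used here is of normalized signal, that is, reads per gene divided by a size factor of each library, deposited by the authors beside their DESeq2 output. Per the file headers that output gives the mean signal, the log2 fold change, its error, the Wald score, the p-value and the adjusted p-value. The submitters' processing notes name STAR, DESeq2 and hg19 without versions, and neither annotation nor read counter is given in the sources used here. Libraries started from 0.2 µg of RNA and poly-T capture, per the labels' protocols. Values were whole multiples of 1 step in each library (100% within 0.001 reads), which gave back reads per gene. Of 19897 rows, 26 with symbols turned into dates (0.153 to 0.191% of reads) were left out.

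limma (version 3.58.1, R 4.3.3) was fitted to log2(value + 1) of the 17737 rows with a value of at least 1 in at least 2 libraries, with eBayes and an intensity trend, and adjusted by Benjamini-Hochberg (threshold 0.05). Fold changes on this scale understate changes of low genes. edgeR (4.0.16), DESeq2 (1.42.0) and limma-voom on recovered reads were alternatives, as were other scalings, filters and pseudocounts, a replicate block, removal of a length and GC trend, and leaving out each library. The fits were tested on simulated data. Genes outside the members were named as WWTR1, DNASE1L1, ATP6AP1, HADHB, the 2 genes with the smallest p of each list and the 5 nearest to tafazzin; KBTBD4, CELF1 and NDUFS3 were added after the data were seen, for their overlap. Lengths and exons came from GENCODE 29 (GRCh38), another build than that of the table, and promoter windows from RefSeq (GRCh38.p14). Members and lists were chosen with earlier results of these data known. No set test was run. One list of cell type markers is not reported here.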

Additional observations from a re-analysis of the deposited data

How the results depend on the processing

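The 6 cardiolipin pathway genes did not pass the threshold under any of the 11 alternatives that kept all 4 libraries. The fits without 1 library leave 1 library in a group, so only their effect sizes are given for these genes. Leaving out 1 library in turn gave log2 fold changes of -0.53 to -0.073 for tafazzin, -0.27 to 0.15 for CRLS1, -0.15 to 0.051 for PTPMT1, -0.23 to -0.084 for PGS1, -0.051 to 0.19 for LCLAT1 and 0.025 to 0.31 for HADHA. For WWTR1 the range was -2.22 to -1.69 and limma adjusted p-values were 0.308 to 0.9999, with 1 library assumed to vary like the others; under the other 11 alternatives its value was -2.11 to -1.93 and it stayed past the threshold. The count of genes called, 2 by limma, was 10 by edgeR, 68 by DESeq2 and 7 with the replicate number as a block, and 0 without any 1 library. With the block the log2 fold change of tafazzin stayed at -0.30 (limma adjusted p = 0.922). The numbers do not pair the libraries by the labels, and deviations of same-numbered libraries correlated at -0.039 across genes.

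With the length and GC trend removed, PTPMT1, PGS1 and LCLAT1 turned to 0.087, 0.018 and -0.083, the median of the inner membrane scaffold was 0.016 and that of the X-chromosome neighbours 0.19; the cause was not tested. With total-read scaling the scaffold median was -0.016. Without 1 library the medians ranged from -0.12 to 0.10 for phosphatidic acid supply, -0.050 to 0.26 for turnover and transfer, -0.070 to 0.067 for phosphatidylethanolamine, -0.049 to 0.096 for beta-oxidation, -0.067 to -0.0038 for the scaffold, -0.18 to -0.12 for the cardiolipin-binding proteins and -0.049 to 0.047 for the neighbours. In the same fits DNASE1L1 ranged from 0.047 to 0.45, PHB2 from -0.69 to -0.33, ATP6AP1 ranged from -0.025 to 0.25, HADHB from -0.020 to 0.23 and PLA2G6 from -0.81 to 0.27. DESeq2 called CDS1 and ACSL4 (adjusted p = 0.0401 and 0.0475), and the other alternatives did not. The WWTR1 to tafazzin log2 ratio, recomputed by a choice made after seeing the data, was -2.14 to -1.16. The tafazzin row held 111 to 211 reads a library, and what this depth could detect was not tested.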
